A study of Homo sapiens with 4 samples.

Results

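The HOX genes encode homeodomain transcription factors that assign position along the body axis. They lie in 4 clusters, HOXA, HOXB, HOXC and HOXD, and members of different clusters that share a paralogue number descend from 1 ancestral gene. Within a cluster, low paralogue numbers are used toward the head and high numbers toward the tail, and the pattern is set up with retinoic acid and kept by trithorax and Polycomb group proteins. In the mammary gland HOX genes are known for roles in gland development, and several of them are known for altered levels in breast cancer. The members were taken as every row whose symbol is HOX with a cluster letter and a paralogue number, which gave 40 of the 57815 genes in the table under 39 symbols. HOXA had 11 rows, HOXB 10, HOXC 10 and HOXD 9, and HOXC4 was present under 2 identifiers.

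Total RNA of untreated MDA-MB-231 and LM2-4175 cells, both grown in DMEM with 10% fetal bovine serum, was sequenced from 2 libraries per cell line. MDA-MB-231 cells are of triple-negative breast cancer origin and moderately metastatic, and LM2-4175 shares that origin and is highly metastatic to the lung. The comparison asks in which genes the more metastatic line differs from the less metastatic one. Each line is 1 cultured line, and nothing in the sources says that the libraries of a line came from separate cultures. The authors combined the libraries of a line in 1 value per gene, in FPKM (fragments mapped to a gene, divided by transcript length in kilobases and by library size), with a lower and an upper bound that are given here in brackets. No value per library was available, so no difference below could be set against the spread between replicates and no test was run. In RNA of whole cultures, a change in the share of cells that use a gene and a change in RNA per cell cannot be told apart.

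The labelled cell type was compared with its markers. Of 7 genes listed as low or absent in triple-negative lines, ESR1, the estrogen receptor, was at 0.0331 FPKM in MDA-MB-231, 0.0186 in LM2-4175, and PGR, the progesterone receptor, at 0.0124 and 0.00438. However, 4 of the 7 were at 1 FPKM or more in both lines (KRT19 at 250.3 and 36.3, ERBB2 at 35.0 and 22.8, EPCAM at 12.3 and 4.93, and GATA3 at 3.10 and 2.42), and KRT19 and EPCAM were called lower in LM2-4175 by the rule given below. All 8 mesenchymal markers passed the filter on low values and went both ways, with SPARC (13.6 and 231.7 FPKM) and FSCN1 called higher, CAV1 (587 and 151) and KRT18 (448 and 181) called lower and VIM at 1355 and 1768. Of 5 fibroblast markers COL1A1 was called higher (3.16 and 31.0), and COL1A2 (2.76 and 0.113), LUM (1.34 and 0.178) and PDGFRB (9.44 and 1.91) were called lower. KDR, an endothelial marker, was called higher, at 0.971 and 2.48 FPKM. Of 6 white blood cell markers 1 passed the filter, and CD3E was listed at 0 in both lines. Of 5 lung epithelium markers 0 passed it, and SFTPC, SFTPA1 and SCGB1A1 were listed at 0 in both lines. The part of these markers in the HOX values was not tested.

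HOX levels were low in both lines. The median over the 40 rows was 0.0224 FPKM in MDA-MB-231 and 0.0299 in LM2-4175, whereas the median over 19398 protein-coding genes was 3.54 and 3.68. A level of 1 FPKM or more was reached by 3 HOX genes in MDA-MB-231 (HOXB3, HOXB9 and HOXD4) and by 6 in LM2-4175 (the same genes and HOXC6, HOXD1 and HOXD3). These are 7.5% and 15% of the rows, against 58.3% and 58.8% of protein-coding genes. The lower bound was above 0 in both lines for 7 members, HOXA13 and the 6 genes just named.

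**Figure D1:**
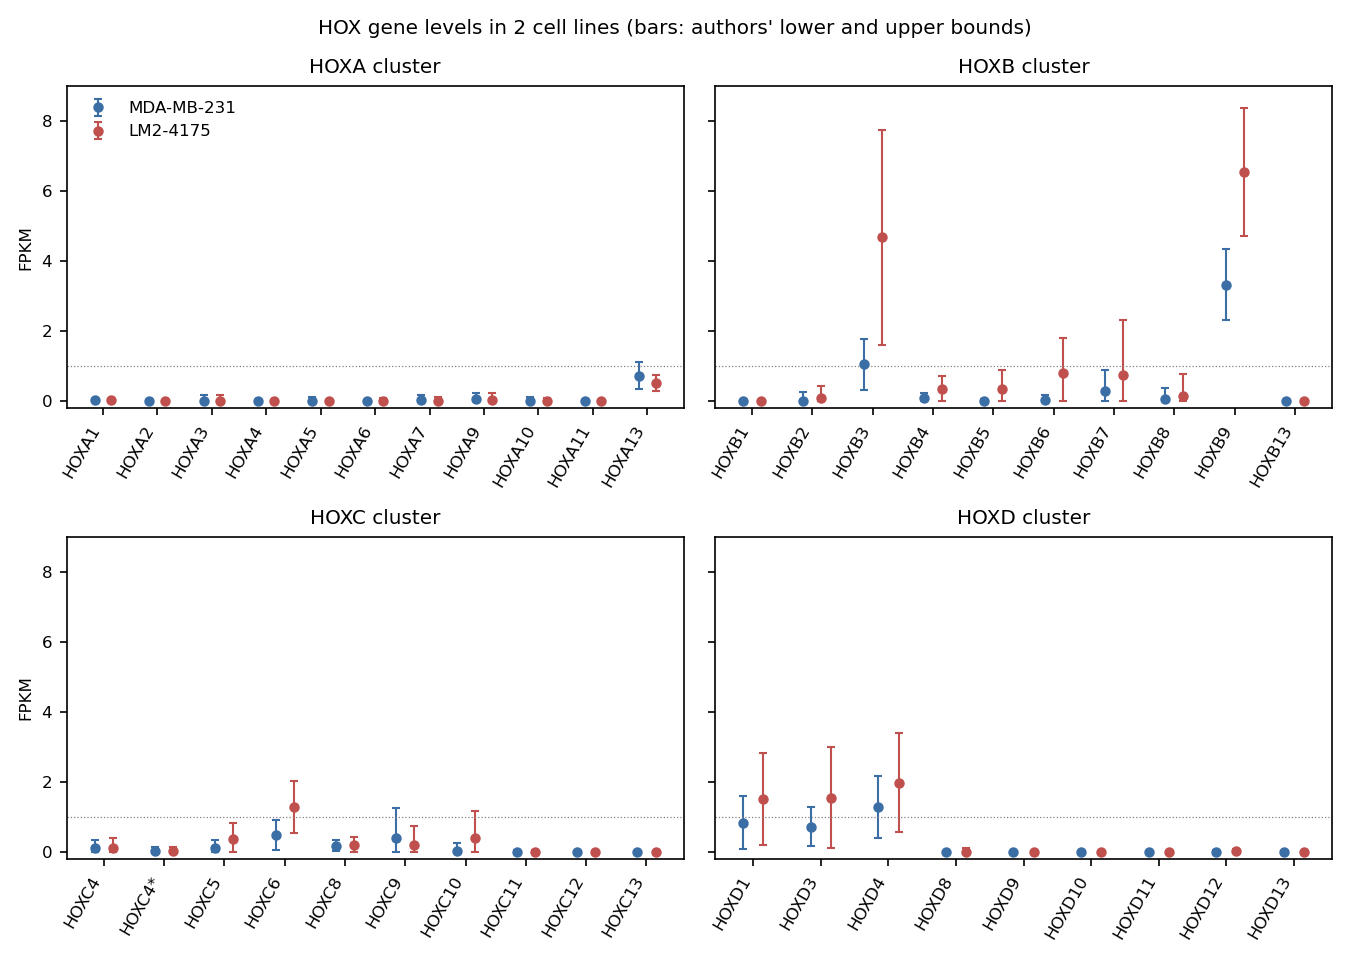
FPKM of the HOX rows in MDA-MB-231 and LM2-4175, by cluster and paralogue number. Points are the authors' value per cell line, bars run between the authors' bounds, the dotted line marks 1 FPKM, and HOXC4 with an asterisk is its second identifier. HOXB9 is the highest gene in both lines, and most other members stay below 1 FPKM with wide bars.

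HOXB9 was the HOX gene at the highest level in both lines. HOXB9, a posterior HOXB factor known in mammary gland development, was at 3.33 FPKM in MDA-MB-231 (bounds 2.32 to 4.34) and 6.54 in LM2-4175 (4.72 to 8.37). The bounds did not overlap, and the log2 ratio of FPKM + 1, LM2-4175 over MDA-MB-231, was 0.80. Among protein-coding genes it moved from percentile 49.5 to 56.4. HOXB9 (ENSG00000170689.8) lies on the minus strand at chr17:46698518-46703720 of GRCh37, and its exons overlap no other gene in the annotation used.

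A gene was called on 2 conditions, a change of FPKM + 1 by 1.5-fold or more and bounds apart, among genes with a mean of at least 0.5 FPKM and a status of OK in both lines. Of the 40 HOX rows 8 passed this filter: HOXA13, HOXB3, HOXB7, HOXB9, HOXC6, HOXD1, HOXD3 and HOXD4. HOXB9 was called higher in LM2-4175, and 0 HOX genes were called lower. Over all genes, 13911 passed the filter, of which 4.67% were called higher and 4.61% lower, so a count of 1 HOX gene does not stand apart from this background. By fold alone, HOXB3, HOXB9 and HOXC6 were higher by at least 1.5-fold and 0 HOX genes were lower, beside 10.3% of all genes compared that were higher and 11.8% that were lower. At 2-fold with bounds apart, HOXB9 was not called. The calls set 1 combined value per cell line against another and could not be checked on single libraries. Whether the bounds hold the spread between libraries is not stated.

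**Figure D2:**
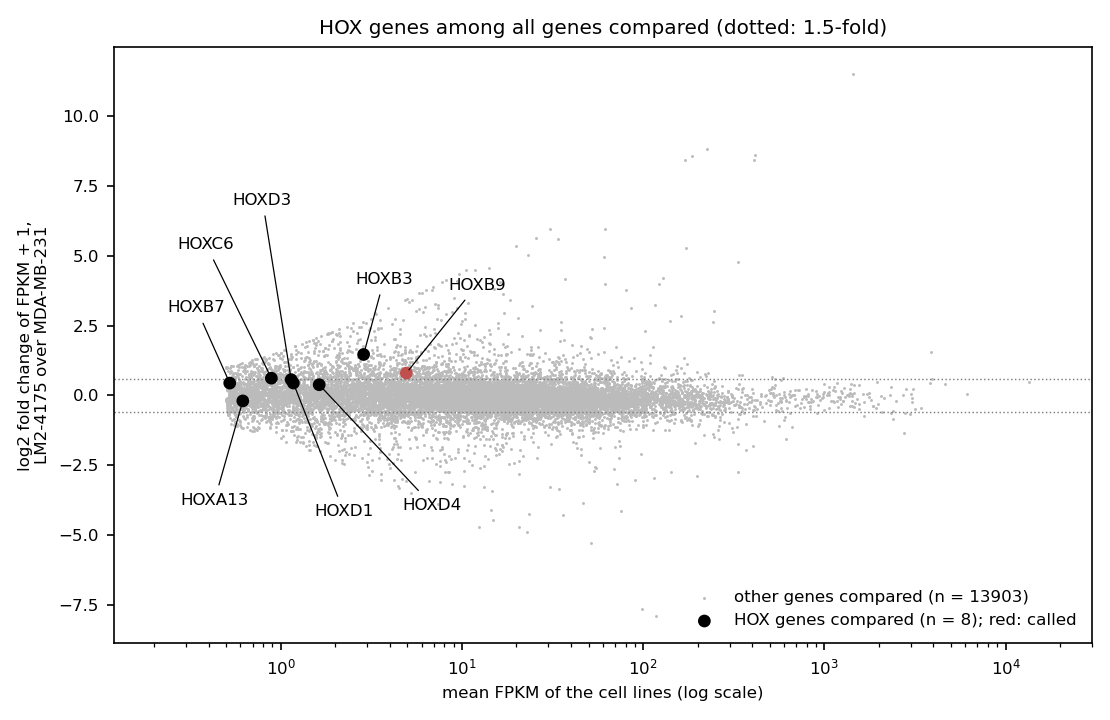
Log2 ratio of FPKM + 1 (LM2-4175 over MDA-MB-231) against mean FPKM of the cell lines on a logarithmic axis, for the 13911 genes that passed the filter. Large points are the 8 HOX genes that passed it, red marks HOXB9, which was called, and the dotted lines mark a 1.5-fold change; the HOX genes sit at the low end of the FPKM range.

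HOXB3, an anterior HOXB factor known in hindbrain patterning, had the largest log2 ratio of the 40 rows on the FPKM + 1 scale. It was at 1.06 FPKM in MDA-MB-231 (0.326 to 1.79) and 4.68 in LM2-4175 (1.60 to 7.76), a log2 ratio of 1.46 and a plain ratio of 4.42. This order depends on the pseudocount, because with 0.1 FPKM in place of 1 the log2 ratio was 2.04 for HOXB3 and 2.75 for HOXB6, and with none the plain ratios of HOXB6 (23.3), HOXB5 (23.2), HOXB2 (12.8) and HOXC10 (10.3), all of them near 0 in MDA-MB-231, were above that of HOXB3. The bounds overlapped by a small stretch, from 1.60 to 1.79 FPKM, so HOXB3 was not called. Its gene (ENSG00000120093.7, chr17:46626232-46682274, minus strand, GRCh37) spans several of its neighbours. Of its exon bases 6.42% are shared with HOXB4 and HOXB6 on the same strand and 5.29% with the antisense genes HOXB-AS1 and HOXB-AS3, and use of strand in counting is not stated, so reads in these stretches could have been assigned to either gene.

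The low members of the HOXB cluster were chosen for description after their values were seen. HOXB6 was at 0.0346 FPKM in MDA-MB-231 (0 to 0.188) and 0.806 in LM2-4175 (0 to 1.81), and HOXB7, known for raised levels in breast cancer, at 0.292 and 0.755. HOXB5 went from 0.0147 to 0.342 FPKM and HOXB8 from 0.0597 to 0.148. All 8 genes from HOXB2 to HOXB9 had the higher value in LM2-4175, and of these only HOXB9 had bounds apart. HOXB13, at the far end of the cluster, was at 0.00297 and 0.00288 FPKM, and HOXB1 was listed at 0 in both lines. HOXB summed to 4.90 FPKM in MDA-MB-231 against 13.7 in LM2-4175, a ratio of 2.80. Without HOXB3 and HOXB9 the sum was 0.512 and 2.50. The lower bound of every gene left in this sum was 0 in both lines, so no direction could be read from it. HOXB3 shares exon bases with HOXB4 and HOXB6, so these values are not independent measurements.

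**Figure D3:**
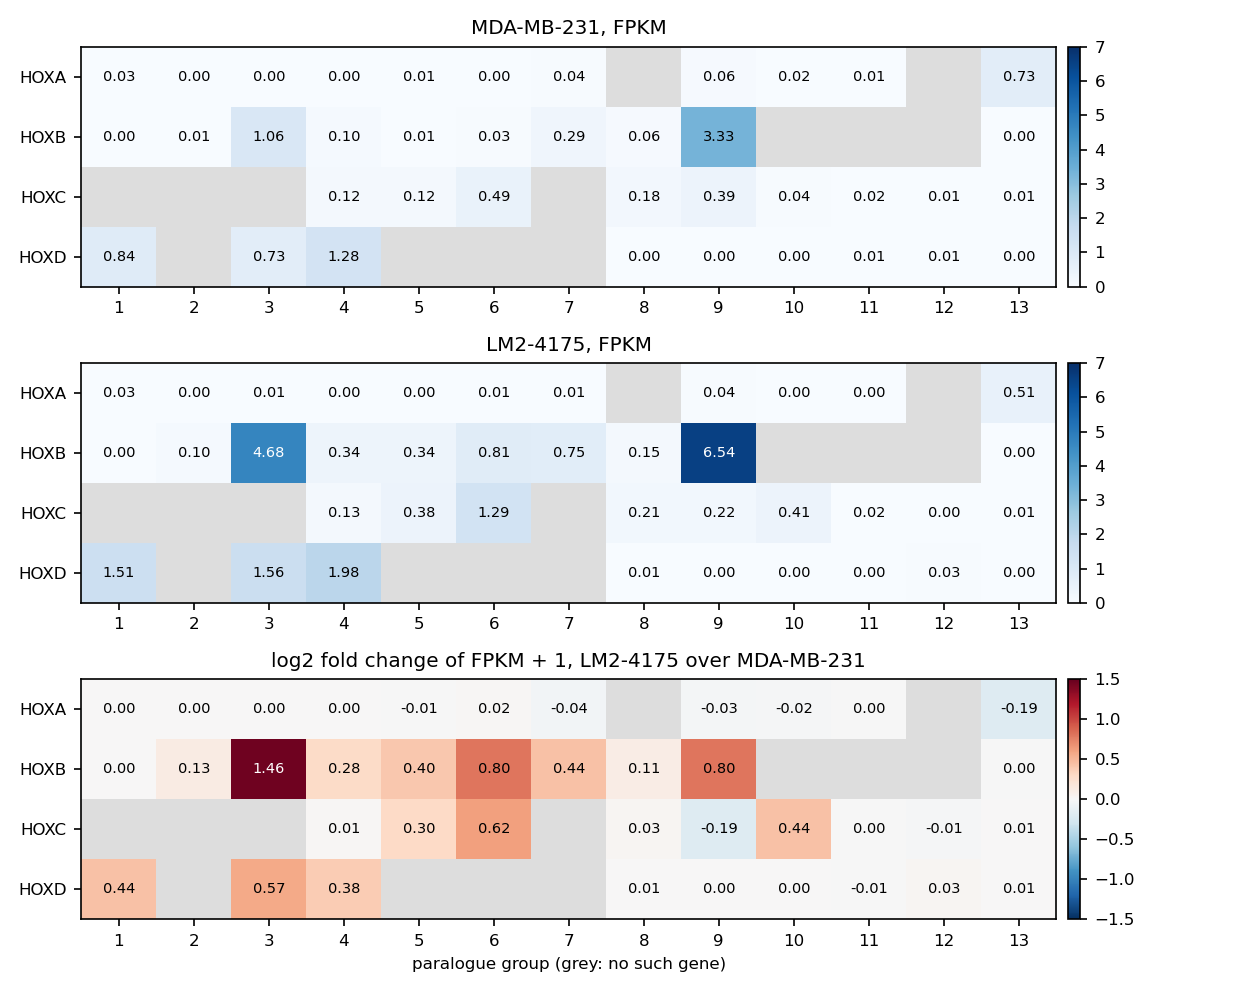
Log2 ratio of FPKM + 1 (LM2-4175 over MDA-MB-231) for each HOX gene, with clusters in rows and paralogue numbers in columns; the color gives the ratio, and the second HOXC4 identifier is left out. The HOXB row holds the largest ratios, 1.46 for HOXB3 and 0.80 for HOXB6 and HOXB9, and the HOXA row holds values near 0.

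In the HOXD cluster the anterior genes carried nearly all of the signal. HOXD4, known in patterning of the hindbrain and neck vertebrae, was at 1.28 FPKM in MDA-MB-231 (0.396 to 2.17) and 1.98 in LM2-4175 (0.567 to 3.39), a log2 ratio of 0.38. HOXD3, known to raise integrin levels in endothelial cells, was at 0.728 (0.171 to 1.28) and 1.56 FPKM (0.112 to 3.002), a log2 ratio of 0.57. HOXD1, the most anterior member of its cluster, was at 0.842 (0.0804 to 1.60) and 1.51 FPKM (0.194 to 2.82), a log2 ratio of 0.44. All 3 were higher in LM2-4175 by value, and the bounds overlapped widely for each, so a difference could not be read at this precision. Together they went from 2.85 to 5.04 FPKM of the 2.86 and 5.08 summed over the cluster. Of the genes from HOXD8 to HOXD13, the highest was at 0.00567 FPKM in MDA-MB-231 and 0.0291 in LM2-4175. HOXD9 and HOXD10 were listed at 0 in both lines, HOXD8 and HOXD13 at 0 in MDA-MB-231 and HOXD11 at 0 in LM2-4175.

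HOXD4 (ENSG00000170166.5) lies at chr2:177016278-177017954 of GRCh37 on the plus strand with no exon overlap. HOXD3 (ENSG00000128652.7, chr2:177001340-177037830, plus strand) shares 14.1% of its exon bases with genes on the opposite strand, and HOXD1 (ENSG00000128645.11, chr2:177053396-177055635, plus strand) shares 60.1%. Of the 1886 exon bases of HOXD1, 989 are shared with ENSG00000279160, a minus-strand gene of the newer annotation used here, and 145 with HOXD-AS1, also named HAGLR, a long non-coding RNA gene read from the minus strand at chr2:177028779-177053686. HOXD-AS1 was at 5.91 FPKM in MDA-MB-231 (3.25 to 8.57) and 11.4 in LM2-4175 (7.26 to 15.6), a log2 ratio of 0.85 with bounds that overlapped. The value of HOXD-AS1 was above that of every HOX gene in both lines. Its bounds overlapped those of HOXB9 in both lines and of HOXB3 in LM2-4175, so its order against these genes could not be read. Without strand, reads in those 145 bases cannot be told apart between HOXD1 and HOXD-AS1.

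Promoter windows were taken from RefSeq (GRCh38.p14), 250 bases before to 50 after a gene's start, for 4 genes chosen after their values were seen. These are HOXD4, the highest HOXD gene in both lines, HOXD1, whose start region it shares with HAGLR, HOXD10, which was listed at 0, and HOXA13, the leading HOXA gene. They are shown for their CpG content, with each CG in capitals. HOXD1 (chr2:176188418-176188717, plus strand) holds 36 CG in 300 bases, of which 297 bases are shared with windows of HAGLR. HOXD4 (chr2:176151300-176151599, plus strand) holds 4 CG, and HOXD10 (chr2:176116528-176116827, plus strand), listed at 0 in both lines, holds 23. HOXA13 (chr7:27200042-27200341, minus strand) holds 44 CG and shares 171 bases with the window of the antisense gene HOTTIP.
HOXD1: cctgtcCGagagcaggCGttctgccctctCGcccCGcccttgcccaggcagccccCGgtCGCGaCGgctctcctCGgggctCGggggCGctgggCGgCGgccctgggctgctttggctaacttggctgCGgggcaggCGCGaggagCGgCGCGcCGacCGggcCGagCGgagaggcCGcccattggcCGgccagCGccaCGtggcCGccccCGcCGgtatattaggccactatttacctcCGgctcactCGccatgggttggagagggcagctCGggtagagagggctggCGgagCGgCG
HOXD4: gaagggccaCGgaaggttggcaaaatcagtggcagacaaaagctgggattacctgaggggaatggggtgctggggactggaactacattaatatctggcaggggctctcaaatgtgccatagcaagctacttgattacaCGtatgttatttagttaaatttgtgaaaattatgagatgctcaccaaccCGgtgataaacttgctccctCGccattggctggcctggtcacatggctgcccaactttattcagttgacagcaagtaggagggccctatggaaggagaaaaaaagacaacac
HOXD10: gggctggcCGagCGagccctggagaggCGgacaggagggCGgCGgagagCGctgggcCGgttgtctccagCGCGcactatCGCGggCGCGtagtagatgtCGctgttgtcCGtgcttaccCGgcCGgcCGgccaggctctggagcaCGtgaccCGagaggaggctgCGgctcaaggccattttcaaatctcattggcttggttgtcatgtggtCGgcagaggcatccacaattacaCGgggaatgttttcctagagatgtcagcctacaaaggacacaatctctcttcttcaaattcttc
HOXA13: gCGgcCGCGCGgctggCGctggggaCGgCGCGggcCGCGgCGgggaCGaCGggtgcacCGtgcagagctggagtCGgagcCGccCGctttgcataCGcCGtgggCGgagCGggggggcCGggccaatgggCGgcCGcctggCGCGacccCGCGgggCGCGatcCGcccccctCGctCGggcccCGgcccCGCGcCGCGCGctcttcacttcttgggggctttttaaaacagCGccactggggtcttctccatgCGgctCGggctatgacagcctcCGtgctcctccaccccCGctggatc

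In these windows HOXD10, listed at 0 in both lines, held 23 CG. HOXD4, which was read at 1.28 and 1.98 FPKM, held fewer (4), and HOXD1 (36) and HOXA13 (44) held more. A link between CG content and level was not tested. Over all HOX windows, 27 for 20 symbols, the median was 22 CG and 58.0% GC, against 14 CG and 58.7% GC over 35116 windows of all genes. The letters TATAAA were found on either strand in 18.5% of the HOX windows (HOXA3, HOXA9, HOXA10 and HOXD13) and in 11.5% of all windows. The letters TGATNNAT, a form of the site bound by PBX and HOX proteins together, were found in 11.1% of the HOX windows (HOXA2, HOXB1 and HOXD11) and in 7.398% of all. The letters AGGTCA, a core of nuclear receptor sites, were in 0 of the HOX windows and 13.8% of all. These are descriptions of the letters in the windows, of which 16 of the 27 belong to HOXA and 8 to HOXD. HOXB had a window for HOXB1 alone, and HOXC4 and HOXC5 have the same window, counted for each. Of the 39 HOX symbols 20 had an entry, and HOXB3, HOXB9 and HOXC6 had none.

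In the HOXC cluster, HOXC6, a thoracic HOX factor known in mammary gland development, led in both lines. It was at 0.490 FPKM in MDA-MB-231 (0.0672 to 0.913) and 1.29 in LM2-4175 (0.543 to 2.03), a log2 ratio of 0.62 with bounds that overlapped. HOXC6 (ENSG00000197757.7, chr12:54384408-54424607, plus strand, GRCh37) shares 16.1% of its exon bases with same-strand genes, among them HOXC4, and 2.11% with genes on the other strand. The further HOXC genes, named here after their values were seen, went both ways by value. HOXC10 was at 0.0394 FPKM in MDA-MB-231 and 0.408 in LM2-4175, HOXC5 at 0.124 and 0.384, and HOXC9 at 0.393 and 0.218. The bounds of HOXC10, HOXC5 and HOXC9 overlapped from 0 upward and none of them passed the filter, so no difference could be read. HOXC8 was at 0.185 and 0.208 FPKM. The HOXC4 identifiers were at 0.116 and 0.125 FPKM for the first and 0.0373 and 0.0308 for the second, which is absent from the annotation used here. HOXC11, HOXC12 and HOXC13 reached at most 0.0172 FPKM in MDA-MB-231 and 0.0151 in LM2-4175. The sum over HOXC was 1.42 and 2.69 FPKM.

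HOXA was the cluster whose sum was lower in LM2-4175, at 0.892 FPKM in MDA-MB-231 and 0.617 in LM2-4175, a ratio of 0.692. HOXA13, a factor of limb and urogenital development that is described here because it made up 81.5% and 82.5% of that sum, was at 0.727 FPKM in MDA-MB-231 (0.346 to 1.11) and 0.509 in LM2-4175 (0.280 to 0.738). The bounds overlapped over most of their length. The other 10 HOXA genes reached at most 0.0640 FPKM in MDA-MB-231 and 0.0440 in LM2-4175, both for HOXA9, and their highest upper bounds were 0.226 and 0.222. HOXA2 and HOXA4 were listed at 0 in both lines, HOXA6 at 0 in MDA-MB-231 and HOXA5 at 0 in LM2-4175. At this precision no difference in HOXA could be read.

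Counted over all 40 rows, 23 values were higher in LM2-4175, 12 were lower and 5 were listed at 0 in both lines. By cluster, 3 were higher and 6 lower in HOXA, 8 and 1 in HOXB, 6 and 4 in HOXC and 6 and 1 in HOXD. Of all protein-coding genes 42.2% had the higher value in LM2-4175 and 45.2% the lower. HOX genes took 0.00159% of the summed FPKM of the table in MDA-MB-231 and 0.0037% in LM2-4175. Grouped by position in the body axis, the anterior genes (paralogues 1 to 3) summed to 2.67 and 7.88 FPKM, the central genes (4 to 8) to 2.78 and 6.43, and the posterior genes (9 to 13) to 4.62 and 7.80. Of the HOX sum, HOXB9 held 33.1% in MDA-MB-231 against 29.6% in LM2-4175, and HOXB3 10.5% and 21.2%, so the sums follow few genes. Without HOXB3 and HOXB9 the HOX sum was 5.68 and 10.9 FPKM.

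The order of the levels could be read only at the top. In MDA-MB-231 the lower bound of HOXB9, 2.32 FPKM, was above the upper bound of HOXD4, 2.17, and the other members down the order overlapped with their neighbors. In LM2-4175 the bounds of HOXB9 and HOXB3 overlapped, whereas the lower bound of HOXB9, 4.72, was above the upper bound of HOXD4, 3.39. For the 6 genes described in full, the upper bound lay at a median of 72.9% above the FPKM in MDA-MB-231 and 68.6% in LM2-4175. Over all genes compared these distances were 38.6% and 38.1%, and over genes with a mean of 0.5 to 5 FPKM they were 66.8% and 62.2%.

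Within the clusters or up to 10 kb beyond their ends lie 43 further genes of the table, of which 18 were listed at 0 in both lines and 1, HOXD-AS1, passed the filter. Named after their values were seen, HOTAIR, a HOXC antisense RNA known for a role in breast cancer metastasis, was at 0.0658 FPKM (0 to 0.216) and 0.0265 (0 to 0.162), and HOTTIP at 0.156 (0 to 0.417) and 0.0388 (0 to 0.148). HOXB-AS3, which overlaps the HOXB genes, was at 0.000679 FPKM (0 to 0.321) and 0.385 (0 to 1.48). The bounds of all 3 overlapped from 0 upward, so no difference could be read. The 5 microRNA hairpin genes matched by identifier, MIR10B, MIR196A1, MIR196A2, MIR196B and MIR615, were listed at 0 in both lines. They span 70 to 110 bases, shorter than the reads the study describes, so this 0 may be no measure of the microRNAs. HOXD10, a known target of miR-10b, was also listed at 0, and a link between them was not tested.

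Neighboring genes outside the clusters were compared in the same way. Within 3 Mb on either side, the 56 protein-coding genes around HOXB that passed the filter had a median log2 ratio of -0.05, with 1 called higher and 2 lower. Around HOXA the median of 20 genes was 0.07, with 3 called higher and 0 lower, around HOXC that of 90 genes was 0.04, with 0 higher and 4 lower, and around HOXD that of 26 genes was -0.19, with 0 called. Over all genes compared the median was -0.04, with 4.67% called higher and 4.61% lower. The shares around HOXA were 15% and 0%. Of a list of 23 genes that flank the clusters, 16 passed the filter, 1 was called higher and 0 lower, beside the same 4.67% and 4.61%. The 1 called was SNX10, an endosomal sorting protein, at 0.687 FPKM in MDA-MB-231 (0.248 to 1.13) and 4.13 in LM2-4175 (2.80 to 5.46), a log2 ratio of 1.60. Its gene lies at chr7:26331482-26414003 of GRCh37, with SKAP2, which was not called, between it and HOXA. SNX10 is also among the 3 genes called higher within 3 Mb of HOXA.

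HOX proteins bind DNA with TALE homeodomain cofactors of the PBX and MEIS families. PBX3 was at 17.6 FPKM in MDA-MB-231 (12.02 to 23.3) and 9.05 in LM2-4175 (6.02 to 12.1), a log2 ratio of -0.89, with bounds that overlapped narrowly. TGIF1, a TALE repressor, was at 51.1 and 38.7 FPKM, TGIF2 at 16.04 and 19.9, and MEIS2 at 10.5 in both lines. PBX2 was listed at 0 in both lines, as were RING1 and RXRB of the lists below, so a listed 0 may be no measure of absence.

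**Figure D4:**
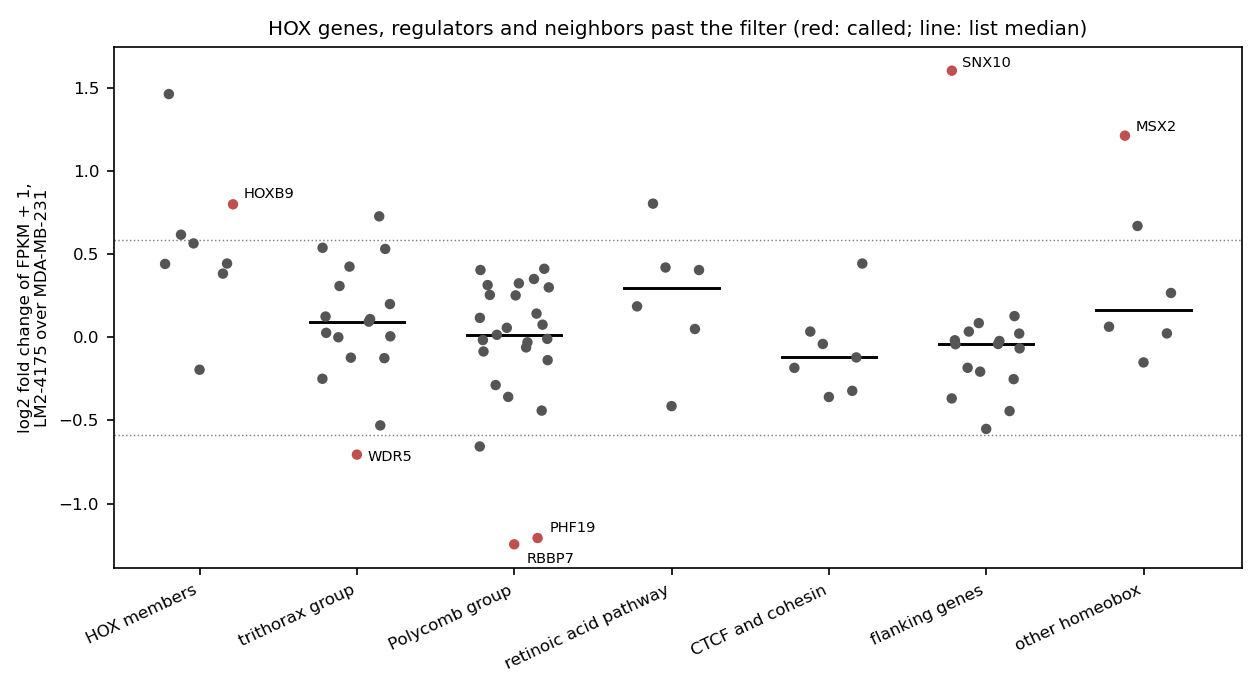
Log2 ratio of FPKM + 1 (LM2-4175 over MDA-MB-231) of the genes that passed the filter, for the HOX genes and the lists of regulators, flanking genes and other homeobox genes. Points are genes, red points were called, dotted lines mark a 1.5-fold change, and a solid line marks the median of each list other than HOX; SNX10, at 1.60, is the highest called gene and RBBP7, at -1.25, the lowest.

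The trithorax group keeps HOX genes on and the Polycomb group keeps them off. Of 18 trithorax rows 17 passed the filter, with a median log2 ratio of 0.09, 0 called higher and 1 lower. It was WDR5, a core subunit of the histone H3 lysine methyltransferase complexes, at 48.4 FPKM in MDA-MB-231 (36.6 to 60.3) and 29.3 in LM2-4175 (22.1 to 36.5), a log2 ratio of -0.71. KMT2A, the methyltransferase known for HOX activation in leukemia, was at 13.4 and 16.9 FPKM with overlapping bounds. Of 27 Polycomb genes 25 passed the filter, with a median of 0.02, 0 called higher and 2 lower. RBBP7, a histone-binding subunit, was at 195.5 and 81.9 FPKM (log2 ratio -1.25), and PHF19, a PRC2 accessory protein, at 118.4 and 50.7 (log2 ratio -1.21). EZH2, the PRC2 methyltransferase, was at 41.9 FPKM in MDA-MB-231 (31.7 to 52.0) and 32.4 in LM2-4175 (24.2 to 40.7), a log2 ratio of -0.36 with overlapping bounds. The shares called in these lists stand beside 4.67% called higher and 4.61% called lower over all genes compared.

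Retinoic acid acts on HOX genes through RAR and RXR receptors. Of 13 genes of the pathway 6 passed the filter and 0 were called in either direction, with a median log2 ratio of 0.30. RXRA was at 26.3 FPKM in MDA-MB-231 and 19.5 in LM2-4175, RARG at 10.97 and 14.8, and RARA at 11.6 and 13.4. Of 7 genes of CTCF and cohesin, which set loops within the clusters, all passed the filter and 0 were called, with a median of -0.12.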

How the data were processed

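RNA of 4 libraries, 2 per cell line, was sequenced by the authors as paired reads, aligned to hg19 with TopHat2 and quantified with Cufflinks on GENCODE annotation, per the labels and the study's methods. The deposited table gives 1 FPKM value per gene and line with a lower and an upper bound, combined over libraries. The labels also name Cuffdiff, with which the study found its differentially expressed genes. Library-size normalization, use of strand and the level and making of the bounds are not given in the sources used here. The table gives no counts, and the aligned reads per library that the study lists were not used here, so no counting interval was computed.

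FPKM were compared as log2 of FPKM + 1, a scale that understates changes of low genes, in Python 3.11.15 with NumPy 2.4.6 and pandas 2.3.3, with figures in Matplotlib 3.10.9. Genes with a mean of at least 0.5 FPKM and status OK were compared, and called at 1.5-fold with bounds apart. The code was tested on simulated data. Limma had been planned and could not be run on 1 value per line. HOX genes called or at 1 FPKM or more were given in full, and of each list the called members and at most 3 of the highest were named, with other names given as chosen later. Of the gene identifiers, 55535 were in the GRCh37 annotation (GENCODE 44 lifted over), 55531 at the same place, with all 39 HOX identifiers found there. Members and lists were chosen with earlier results of these data known. Some list members, and the counts of the TALE list, are not reported here. Alternatives changed the pseudocount, filter, call and scaling.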

Additional observations from a re-analysis of the deposited data

How the results depend on the processing

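Of 71 alternative values for counts and cluster sums, 60 stayed close to those reported. Part of these 60 could not have moved, because the count of HOX values higher in LM2-4175 uses neither the pseudocount, the filter nor the call. The cluster sums were compared as TPM alone, which shifts all of them alike, and none changed sign. The count of HOX genes called higher was 1, and was 3 by fold alone and 0 at 2-fold with bounds apart. By fold alone 1434 of all genes compared were higher and 1640 lower, in place of 649 and 641, and 403 were lower at 2-fold with bounds apart. Of the further lists 2 genes were called higher, and 4 without a filter on low values, 7 by fold alone and 4 as TPM. In MDA-MB-231, 3 HOX genes were at 1 FPKM or more, 6 at 0.5 FPKM and 0 at 5 FPKM, and in LM2-4175 the counts were 6 at 1 FPKM and 1 at 5 FPKM. WDR5 lost its call at 2-fold and as TPM (log2 ratio -0.63). Rescaled as TPM, log2 ratios of sums rose by 0.08, and 25 HOX values in place of 23 were higher in LM2-4175. The causes were not tested.

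No paired analysis was possible because the table gives 1 value per cell line, and for that reason limma with a replicate block and leaving out each library were not run. The bounds are the only measure of precision, and they are wide for genes as low as most HOX genes.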

Other observations

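Homeobox genes outside the HOX clusters were also low in these lines. A list of 23 genes was taken from the NK, EMX, OTX, DLX, MSX, EN, GBX, MEOX and MNX families. Of these, 6 passed the filter on low values, 1 was called higher in LM2-4175 and 0 lower, with a median log2 ratio of 0.17. Over all genes compared, 4.67% were called higher and 4.61% lower. The 1 called was MSX2, a homeodomain repressor known in skull, limb and mammary gland development, at 0.256 FPKM in MDA-MB-231 (0.0782 to 0.435) and 1.91 in LM2-4175 (1.25 to 2.58), a log2 ratio of 1.21. Below the filter, 4 genes of the list had bounds apart, chosen here after their values were seen. The share of all genes below the filter with bounds apart was not computed, so this count cannot be set against a background. Without the filter, 689 of 57807 genes were called higher in LM2-4175 and 667 lower, at 1.5-fold with bounds apart. MEOX1 (0.0201 and 0.761 FPKM) and NKX2-5 (0.0534 and 0.828) had the higher value in LM2-4175, and EN2 (0.522 and 0.189) and NKX2-1 (0.565 and 0.0855) the lower. Of 6 ParaHox and caudal genes, the closest relatives of the HOX genes, 1 passed the filter and 0 were called. It was GSX2, at 0.230 FPKM in MDA-MB-231 (0 to 1.64) and 0.938 in LM2-4175 (0 to 5.31), so no difference could be read.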
